A study of Mus musculus with 4 samples.

Results

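The 10 genes described here are adhesion molecules of chondrocytes: the ligands Icam1 and Vcam1, the collagen-binding integrin subunits Itga1, Itga2, Itga10 and Itga11, the subunits Itga5 and Itgav that recognise the RGD sequence of fibronectin and vitronectin, and the beta subunits Itgb1 and Itgb5. They were chosen by gene symbol, and their array probes were found by RefSeq transcript. Of these, 9 genes had such a probe (13 probes in all), out of 37042 genes or unnamed transcripts on the array. Itga10 had no probe that matched its listed transcript and was not analysed here.

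Primary chondrocytes were taken from 6-day-old littermates on a C57BL/6J background, cultured for 3 days in medium that held TNF (10 ng ml−1) or none, and profiled on 4 one-colour Agilent arrays. All mice carried Rela fl/fl, a conditional allele of the NF-κB subunit RelA. The conditional knockout (cKO) also carried Prrx1-Cre, whose promoter is active in limb bud mesenchyme, and the Rela fl/fl controls carried no Cre. There was 1 array for each of Rela fl/fl without TNF, Rela fl/fl with TNF, cKO without TNF and cKO with TNF, so no difference below has a replicate check and none was given a p-value. How many mice or cultures stood behind an array is not given in the sources used here.

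Icam1 and Vcam1 are immunoglobulin-type proteins on the cell surface that bind leukocyte integrins, and their genes are known NF-κB targets in endothelium and connective tissue cells. Integrins are pairs of an alpha and a beta subunit that tie a cell to its matrix. The beta1 subunit pairs with all the collagen-binding alpha subunits named above and with alpha5, and alphav pairs with several beta subunits, among them beta5. In cartilage they bind collagen II and fibronectin around the chondrocyte.

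The promoters of Icam1 and Itga11 are shown because these genes differed in opposite directions between the genotypes. Each runs from 250 bases before to 50 bases after the start of the RefSeq gene model (GRCm38.p6, plus strand), at chr9:21015690-21015989 for Icam1 and chr9:62677605-62677904 for Itga11. Capitals mark a match to GGAANTTCC or to the NF-κB consensus, searched on both strands.
Icam1: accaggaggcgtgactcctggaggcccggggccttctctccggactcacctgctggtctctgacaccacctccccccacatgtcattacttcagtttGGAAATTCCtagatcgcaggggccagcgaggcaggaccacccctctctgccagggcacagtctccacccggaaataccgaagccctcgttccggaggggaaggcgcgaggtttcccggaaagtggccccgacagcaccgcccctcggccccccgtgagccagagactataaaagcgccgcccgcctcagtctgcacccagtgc
Itga11: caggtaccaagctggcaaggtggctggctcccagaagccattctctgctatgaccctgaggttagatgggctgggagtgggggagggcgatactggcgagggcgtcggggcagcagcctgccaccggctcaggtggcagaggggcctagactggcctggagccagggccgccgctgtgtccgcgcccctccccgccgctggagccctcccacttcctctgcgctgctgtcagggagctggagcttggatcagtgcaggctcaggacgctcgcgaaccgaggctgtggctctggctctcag
The Icam1 window held 1 match, GGAAATTCC at bases 98 to 106 of the window, and the Itga11 window held none. Among the 9 members with a promoter entry Icam1 was the 1 gene with a match, and the entry of Vcam1 was not among them. Of 32851 promoters of the same length, 0.928% held GGAANTTCC and 6.48% held either motif. A match of letters is a description and does not show that RelA bound there.

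Values are given as relative signals, the processed intensity divided by the array's own 75th percentile, which lay between 589 and 633 intensity units. A probe's signal depends on its sequence, so levels of members were compared between arrays for a probe and not between genes. The marker sums below add the signals of different probes, so each sum follows its brightest probes. Of 55619 probes, 50.9% to 58.1% were well above background, and no transcript spot was saturated. The error given with a log2 difference is the technical spread, computed from probes printed as 10 spots of similar intensity on the same arrays. It leaves out the spread between arrays, cultures and animals. The error that the scanner software gave per spot, combined for a difference, was larger at bright probes. For the genotype difference without TNF it was 0.194 for Itga11 and for the brighter Itgb1 probe, beside technical spreads of 0.083. A log2 difference of 1 (2-fold) was taken as the limit for counting genes. Spots in bright patches made up 1.04% to 10.7% of an array, and among the 13 member probes 1 Itga1 probe and 1 Itgav probe had a spot in one.

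The labels were checked against the data first. The single Rela probe gave 28.4 and 34.9 in the Rela fl/fl controls without and with TNF, and 34.0 and 40.2 on the cKO-labelled arrays. Rela RNA was therefore not lower on those arrays at this probe. The place of the probe relative to the deleted exons is not given, so it does not check the deletion. Xist was detected well over background in the controls (0.719 and 0.755) but on neither cKO-labelled array. The Y-linked gene Eif2s3y gave 1.78 and 1.84 in Rela fl/fl controls and 6.24 and 6.54 on the cKO-labelled arrays. Sex-linked genes thus moved with the genotype label, and in every genotype difference below the sex of the mice and the Rela allele cannot be told apart. All 10 chondrocyte markers were well above background on every array.

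In Rela fl/fl controls TNF went with higher Icam1 and Vcam1, by 1.90-fold and 1.96-fold, and differed much less with TNF on the cKO-labelled arrays. Icam1 (NM_010493), the ligand of the leukocyte integrins LFA-1 and Mac-1, gave a relative signal of 0.434 in untreated Rela fl/fl controls and 0.827 in treated ones. On the cKO-labelled arrays it gave 0.268 without TNF and 0.315 with TNF. Both Rela fl/fl arrays were above both cKO-labelled arrays. The log2 difference with TNF was 0.93 ± 0.16 in Rela fl/fl controls and 0.23 ± 0.13 on the cKO-labelled arrays. These differences were 0.70 ± 0.21 apart.

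Between genotypes Icam1 was lower in the cKO-labelled cells, by a log2 difference of -0.69 ± 0.15 in untreated and -1.39 ± 0.14 in treated cultures. The latter, 2.63-fold, was past the limit. In the order of levels, Rela fl/fl with TNF came first, then Rela fl/fl without TNF, cKO with TNF and cKO without TNF. Each step was larger than 1 technical spread, and the lowest step, 0.23, was smaller than 2.

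Vcam1 (NM_011693), the ligand of integrin alpha4beta1, had a pair of probes. The brighter one gave 1.43 in untreated and 2.81 in treated Rela fl/fl controls, and 1.18 and 1.41 on the cKO-labelled arrays without and with TNF. The array of Rela fl/fl controls with TNF stood apart from the other three, and the levels of Rela fl/fl without TNF and cKO with TNF differed by 0.02, within the technical spread. The log2 difference with TNF was 0.97 ± 0.12 in Rela fl/fl controls and 0.25 ± 0.13 on the cKO-labelled arrays. With TNF the genotype difference was -0.995 ± 0.11 (1.99-fold), just inside the limit, and without TNF it was -0.28 ± 0.15.

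The dimmer Vcam1 probe gave 0.0785, 0.222, 0.0676 and 0.0663 in the same order of arrays. Again only Rela fl/fl with TNF stood apart. Its log2 difference with TNF was 1.503 ± 0.28 in Rela fl/fl controls and -0.03 ± 0.30 on the cKO-labelled arrays, and its genotype difference with TNF was -1.75 ± 0.25. At this probe both the TNF difference in Rela fl/fl controls and the genotype difference with TNF were past the limit, so whether Vcam1 counted as past the limit depended on the probe. It also depended on scaling, since the genotype difference with TNF at the brighter probe was -1.06 without scaling and -1.05 with the authors' value table.

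**Figure D1:**
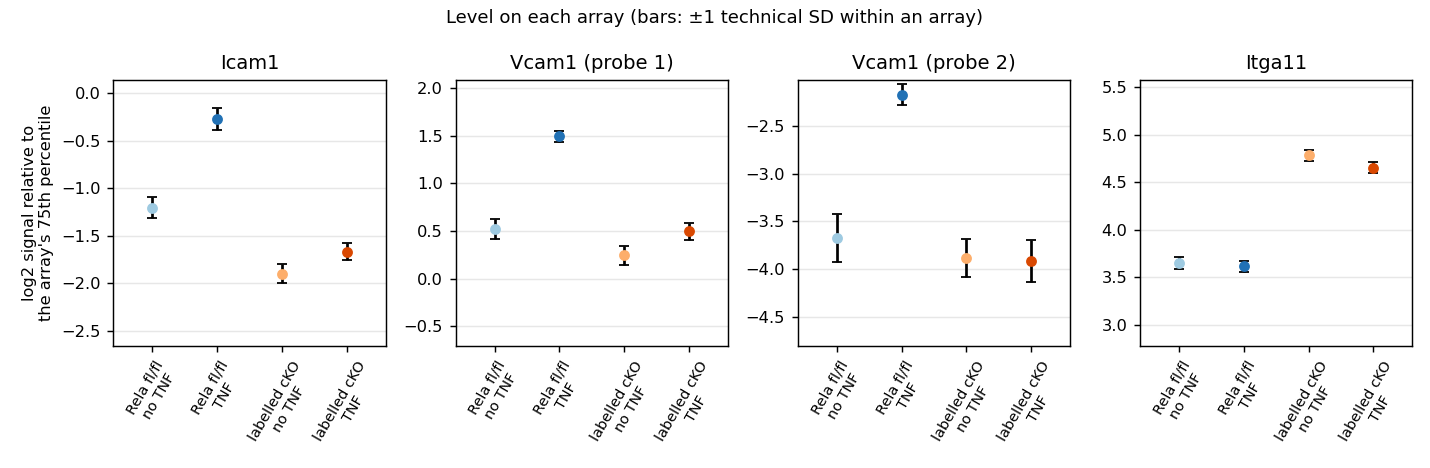
Log2 signal relative to the array's 75th percentile for Icam1, both Vcam1 probes and Itga11 on the 4 arrays, with bars of 1 technical SD within an array, each panel on its own vertical scale. Icam1 and Vcam1 were highest in treated controls and Itga11 on both cKO-labelled arrays (log2 gap 0.998).

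Of 23408 genes measured in the TNF comparison of Rela fl/fl controls, 2.52% were higher with TNF by at least as much as Icam1 and 2.41% by at least as much as Vcam1. The share of all genes higher past the limit was 2.39%, and the share lower was 4.27%. With spots in patches left out the shares were 0.592% higher and 0.716% lower. Among genes over background on both arrays they were 1.01% and 1.55%. None of the 9 members passed the limit in either direction with TNF in Rela fl/fl controls. On the cKO-labelled arrays, again none did, beside 1.02% of all genes higher and 4.46% lower (0.911% and 1.77% outside the patches). The median TNF difference of the members was 0.08 in Rela fl/fl controls and 0.14 on the cKO-labelled arrays, and that of all genes was 0.01 and 0.06.

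**Figure D2:**
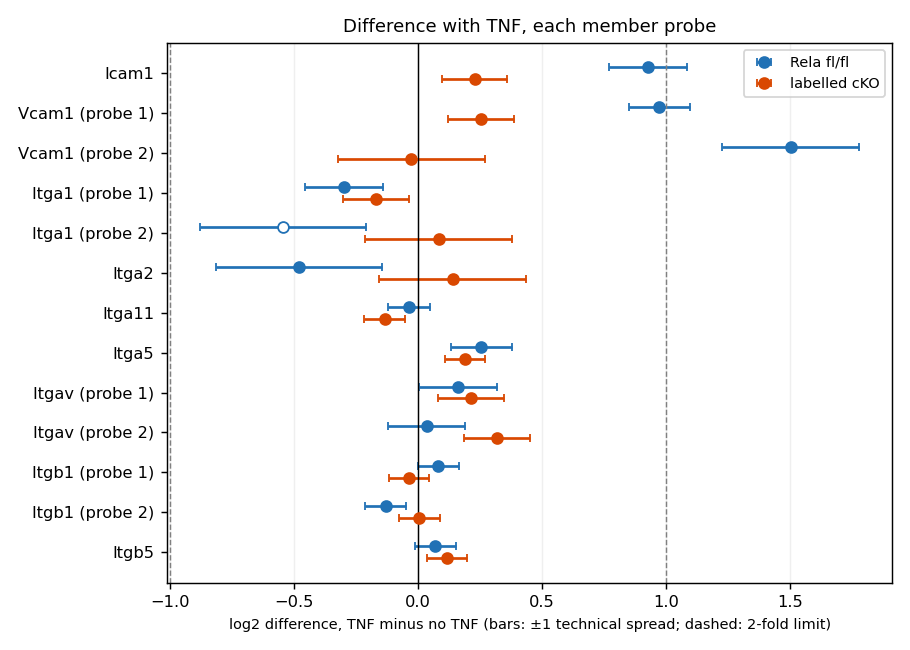
Log2 difference with TNF minus without TNF for each member probe in both genotypes, with bars of 1 technical spread of a difference and dashed lines at the 2-fold limit. The open circle marks a probe at background on at least 1 array. Icam1 (0.93) and both Vcam1 probes (0.97 and 1.503) lay farthest to the right in Rela fl/fl controls.

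Itga11 was the integrin that differed most between genotypes without TNF. The subunit it encodes pairs with beta1 to bind fibrillar collagen. Its probe (NM_176922) gave 12.6 and 12.3 in untreated and treated Rela fl/fl controls, and 27.6 and 25.1 on the cKO-labelled arrays. Both cKO-labelled arrays were above both Rela fl/fl arrays, with a gap of 0.998 between the nearest levels. The log2 difference between genotypes was 1.13 ± 0.08 without TNF (2.19-fold) and 1.03 ± 0.08 with TNF (2.05-fold), both past the limit. With TNF it was 0.97 without scaling or with the authors' value table, 0.96 by quantile normalization and 0.98 with normexp, so the call was lost under these 4 alternatives. The TNF difference was -0.04 ± 0.08 in Rela fl/fl controls and -0.13 ± 0.08 on the cKO-labelled arrays. Without TNF, 3.03% of all genes were higher on the cKO-labelled array by at least this much, and with TNF 1.05% were.

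The 10 chondrocyte markers summed to a relative signal of 1678 and 1600 in untreated and treated controls, and to 1346 and 1373 on the cKO-labelled arrays. Most of the sum came from Col2a1 and Comp. Of the 10 markers, 9 were below 0 in the genotype difference both without and with TNF, with list medians of -0.31 and -0.21. Matn1, which encodes a cartilage matrilin, was lower on the cKO-labelled arrays past the limit, by log2 differences of -1.86 without TNF and -1.19 with TNF. Col10a1, the collagen of hypertrophic chondrocytes, was the exception and was higher there by 0.83 and 0.96, the direction of Itga11. The part of these markers in the Itga11 difference was not tested. The 6 fibroblast markers summed to 642 and 655 in Rela fl/fl controls and to 589 and 570 on the cKO-labelled arrays. Of these, 5 were below 0 in the genotype difference without TNF, where Col1a1 was at 0.05, and all 6 with TNF, where Col1a1 was at -0.01. Thy1 was lower past the limit without TNF (-1.59) and at -0.28 with TNF.

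Itga2, the other subunit past the limit, encodes the alpha subunit of a collagen receptor best known from platelets and epithelium, and here it was dim. Its intensities (NM_008396) were 39.9 and 28.8 in untreated and treated Rela fl/fl controls, and 60.4 and 62.0 on the cKO-labelled arrays. The dimmest probe called well above background on an array had 15.7 to 32.2. The genotype difference was 0.55 ± 0.32 without TNF and 1.17 ± 0.31 with TNF, the latter past the limit. With normexp background correction these were 0.18 and 0.54, and the call was lost. The TNF difference was 0.14 ± 0.30 on the cKO-labelled arrays and -0.48 ± 0.33 in Rela fl/fl controls.

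Itga1 encodes a collagen receptor subunit with a preference for collagen IV. The brighter probe (NM_001033228) gave 0.607 and 0.494 in untreated and treated Rela fl/fl controls, and 0.726 and 0.646 on the cKO-labelled arrays. At this probe the levels were slightly lower with TNF in both genotypes, by log2 differences of -0.30 ± 0.16 and -0.17 ± 0.13. The genotype difference was 0.26 ± 0.15 without TNF and 0.39 ± 0.14 with TNF. The other Itga1 probe was not well above background on either Rela fl/fl array. It was so on both cKO-labelled arrays, where its TNF difference was 0.08 ± 0.30.

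The subunits that bind RGD were a little higher on the cKO-labelled arrays. Itga5 (NM_010577), whose product forms the main fibronectin receptor, gave 1.37 and 1.63 in untreated and treated Rela fl/fl controls and 1.71 and 1.95 on the cKO-labelled arrays. Its TNF difference was 0.26 ± 0.12 in Rela fl/fl controls and 0.19 ± 0.08 on the cKO-labelled arrays. The genotype difference was 0.32 ± 0.12 without TNF and 0.26 ± 0.08 with TNF.

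Itgav (NM_008402), which encodes the shared alpha subunit of the vitronectin receptors, gave 1.001, 1.12, 1.12 and 1.30 at its brighter probe, in the order Rela fl/fl without and with TNF and cKO without and with TNF. The spot of that probe on the array of Rela fl/fl controls with TNF lay in a bright patch. Its other probe, outside the patches, gave 0.496, 0.509, 0.574 and 0.717. The array labelled cKO with TNF was highest at both. The genotype difference with TNF was 0.21 ± 0.14 at the brighter probe and 0.49 ± 0.14 at the other. Without TNF it was 0.16 ± 0.15 and 0.21 ± 0.15, and 25.6% and 20.9% of all genes were higher by at least as much. With normexp background correction the brighter probe gave 0.02 without TNF.

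The beta subunits varied least. Itgb1 (NM_010578), the common partner of the collagen-binding subunits, gave 11.8, 12.5, 13.9 and 13.5 at its brighter probe and 2.17, 1.98, 2.27 and 2.28 at the other. Its TNF differences lay between -0.13 and 0.08 over both probes and genotypes. The genotype difference was 0.24 ± 0.08 without TNF and 0.12 ± 0.08 with TNF at the brighter probe. Itgb5 (NM_010580), a partner of alphav, gave 42.2, 44.3, 43.6 and 47.3, and its 4 differences lay between 0.05 and 0.12, each with a technical spread of 0.08.

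All 7 integrin subunits measured were above 0 in the genotype difference in both media, with a median of 0.26 without TNF and 0.26 with TNF. Of all genes, 50.6% were above 0 without TNF and 59.6% with TNF, with medians of 0.00 and 0.05. They ranged from 0.05 (Itgb5) to 1.13 (Itga11) without TNF and from 0.10 (Itgb5) to 1.17 (Itga2) with TNF, while Icam1 and Vcam1 were below 0 in both. Without TNF, 1 of the 9 members was higher past the limit and none was lower, beside 3.51% and 4.4% of all genes. With TNF, 2 were higher and 1 lower, beside 1.16% and 3.21%. The shares of all genes outside the patches were smaller, with 1.29% higher and 1.05% lower without TNF, and 1.06% and 1.05% with TNF.

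**Figure D3:**
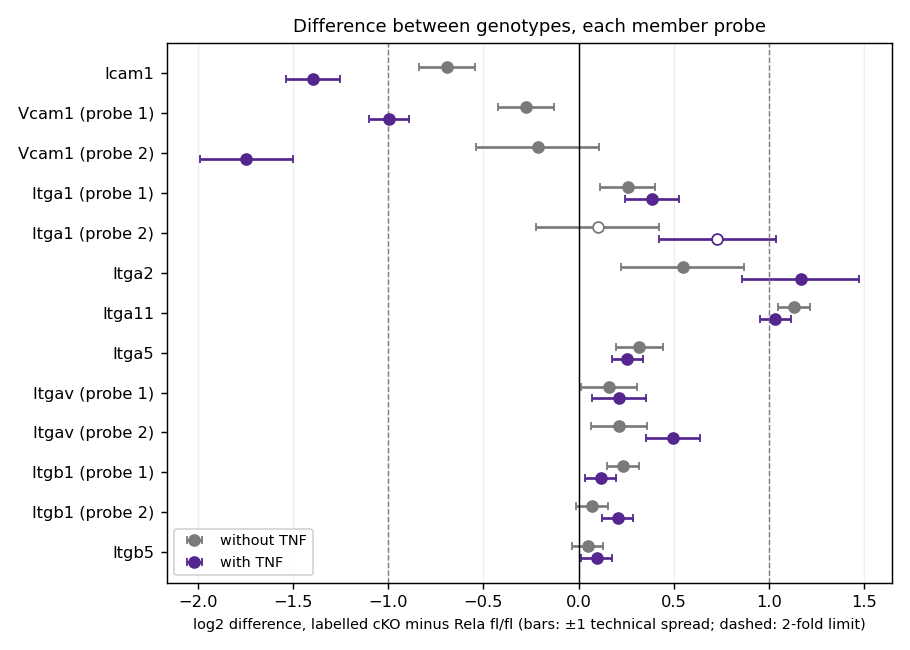
Log2 difference between the cKO-labelled array and the Rela fl/fl array for each member probe without and with TNF, with bars of 1 technical spread and dashed lines at the 2-fold limit. Open circles mark probes not well above background on an array. Icam1 and Vcam1 lay to the left, Itga11 at 1.13 and 1.03 to the right, and Itgb5 near 0 (0.05 and 0.10).

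Among 17 other integrin subunits with a probe, 13 or 14 could be measured in a comparison and 1 passed the limit. Itgb3, the beta subunit of another vitronectin receptor, gave 0.775 and 0.886 in Rela fl/fl controls and 0.762 and 1.64 on the cKO-labelled arrays. It was higher with TNF there by 1.102 ± 0.13. The median of these subunits was -0.09 for TNF in Rela fl/fl controls, 0.12 for TNF on the cKO-labelled arrays, 0.04 for genotype without TNF and 0.33 for genotype with TNF. The medians of all genes, in the same order, were 0.01, 0.06, 0.00 and 0.05. Of the 20 other molecules of cell-cell adhesion, 16 or 17 could be measured, and Cd44 and F11r passed the limit. Cd44, a hyaluronan receptor, gave 4.58 and 6.33 in Rela fl/fl controls and 7.03 and 14.4 on the cKO-labelled arrays. Its log2 difference with TNF was 0.47 ± 0.08 in Rela fl/fl controls and 1.03 ± 0.08 on the cKO-labelled arrays. Its genotype difference was 0.62 ± 0.08 in untreated and 1.18 ± 0.08 in treated cells, the latter past the limit. F11r, a tight junction adhesion molecule, had a genotype difference of 1.12 ± 0.15 in untreated and 1.28 ± 0.14 in treated cells.

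None of 19 matrix ligands of integrins passed the limit in any comparison. Their median differences lay between 0.04 and 0.06, and single genes between -0.76 (Lama1, a laminin chain, genotype without TNF) and 0.90 (Spp1, which encodes osteopontin, TNF on the cKO-labelled arrays). Among the integrin adaptors Parvb, which links integrins to actin, was well above background only on the cKO-labelled array with TNF. Src, a kinase of focal adhesions, passed the limit through a spot in a bright patch and is not described further.

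**Figure D4:**
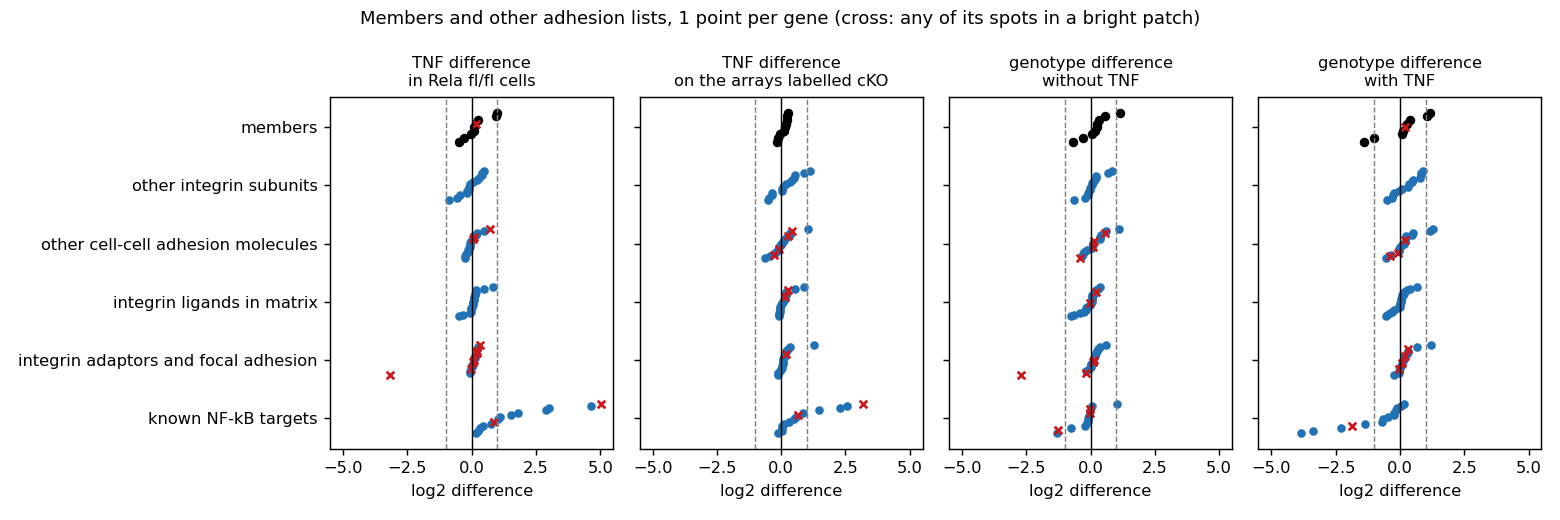
Log2 differences in the 4 comparisons, 1 point per gene of the members and of the other lists, spread vertically only so that points can be seen, with dashed lines at the 2-fold limit and crosses for genes with any spot in a bright patch. The NF-κB targets had a median of 1.05 with TNF in Rela fl/fl controls, and the matrix ligands spread from -0.76 (Lama1) to 0.90 (Spp1), inside the limit.

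For 14 known NF-κB targets other than the members, the median TNF difference was 1.05 in Rela fl/fl controls, where 8 were higher past the limit, and 0.54 on the cKO-labelled arrays, where 4 were. With TNF, 5 of them were lower past the limit on the cKO-labelled array and none was higher. The shares of all genes beside the 8, 4 and 5 were 2.39%, 1.02% and 3.21%. Ccl2, with a spot in a bright patch, was in each of these counts, and the Il6 difference with TNF in controls was a bound. In the genotype difference without TNF, 1 of 13 was higher past the limit and 2 were lower. Icam1 and Vcam1 gave TNF differences of 0.93 and 0.97 in Rela fl/fl controls and 0.23 and 0.25 on the cKO-labelled arrays. Both genes were below the list's median in each. For Vcam1 in the controls this held at the brighter probe alone, since the dimmer one (1.503) and the mean over both probes (1.24) were above that median. Comparisons that share an array are not independent of each other.

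Endothelium and leukocytes also carry these ligands, so their markers were read beside Icam1 and Vcam1. The endothelial genes Cdh5, Tek, Tie1 and Cldn5 and the leukocyte gene Ptprc were not well above background on any array. The summed endothelial signal was 18.5, 18.1, 17.9 and 20.8, nearly all of it from Kdr, and the leukocyte sum was 39.2, 35.8, 44.1 and 35.2, mostly from Itgam. Each sum thus followed a single probe. Pecam1 was well above background on all 4 arrays (0.150 to 0.203), and Vwf on both TNF arrays but not on the others. Emcn was so on the untreated cKO-labelled array alone (0.132, a spot in a bright patch), which gave a genotype difference past the limit (a bound of 1.33). Among macrophage genes Lyz2 gave 0.661, 0.247, 0.153 and 0.128 (a spot on the untreated control array lay in a bright patch), and Tyrobp gave 0.119, 0.0597, 0.0387 (not well above background) and 0.0404. Both were lower on the cKO-labelled arrays. The other leukocyte markers over background did not all follow them, with genotype differences without and with TNF of -0.13 and 0.05 for Csf1r, 0.20 and -0.03 for Itgam, -0.10 and 0.30 for Itgb2, and 2.87 (in a bright patch) and -0.50 for Adgre1. Over the 6 markers measured the medians were -0.12 and -0.27. The part of these cells in the Icam1 and Vcam1 values was not tested. In bulk RNA, fewer cells of a type and less RNA per cell cannot be told apart.

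Genes with the most similar pattern were found by the Euclidean distance of centred log2 values over the 4 arrays, among 9664 genes with a symbol that were over background everywhere and free of patches. The nearest to Icam1 were Parp14 (distance 0.116), Psmb9, Gstt1, Bpifb1 and Phf11d (0.363), and Vcam1 ranked 9 at 0.410. The nearest to Vcam1 were Tapbp (0.117), Camp, 2610528A11Rik, Saa1 and Gstt1 (0.178). With 4 arrays, likeness of pattern is a description.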

How the data were processed

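RNA of primary chondrocytes was labelled with Cy3 and hybridised to 4 one-colour Agilent arrays, 1 per condition, on 1 slide scanned on 1 day. The authors deposited the scanner output of Agilent Feature Extraction 10.10.1.1, which holds the background-subtracted processed intensity of each spot and its flags, and a value table, which was 1 factor per array times that intensity and was used as an alternative.

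Outlier spots were left out, the log2 of the processed intensity was taken minus the array's 75th percentile, and spots of a probe were averaged. A gene was measured in a comparison where the brighter array was well above background. Where the dimmer array was not, its value was set no lower than that array's dimmest probe over background, which gives a bound. The probe with the highest mean stood for a gene. Of 20809 NM transcripts 20435 matched a RefSeq symbol. Bright patches were found from neighbouring spots. There was no test, since each condition had a single array. The procedure was run on simulated data with changes well past the limit, at probes well above background and with the same noise at every probe. That run does not bear on differences near the limit.

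The members and lists were chosen with earlier results of these data known. Genes named were all members, Rela, cell type markers, up to 5 genes of each adhesion list past the limit outside patches, and the 5 nearest in pattern to Icam1 and Vcam1. Xist, Eif2s3y, Lama1, Spp1, Src, Ccl2 and Il6 were named outside this rule, after their values were seen. The 11 alternatives covered scaling, background, filter, limit, probe choice, patches and unnamed transcripts. Python 3.11.15, pandas 2.3.3, R 4.3.3 and limma 3.58.1 were used.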

Additional observations from a re-analysis of the deposited data

Results flagged for a closer look

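The TNF differences of Itga2, and of Itgb1 at its brighter probe, had opposite signs in the 2 genotypes. Of these, only that of Itga2 in Rela fl/fl controls was larger than 1 technical spread. Itga2 gave -0.48 (technical spread 0.33) in Rela fl/fl controls and 0.14 (spread 0.30) on the cKO-labelled arrays. Itgb1 gave 0.0829 (spread 0.0829) in Rela fl/fl controls and -0.0367 (spread 0.0815) on the cKO-labelled arrays, and its other probe went the other way in both. The TNF difference in controls minus that on the cKO-labelled arrays was -0.62 ± 0.45 for Itga2 and 0.12 ± 0.12 for the brighter Itgb1 probe. With 1 array per condition the difference between genotypes was not tested.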

How the results depend on the processing

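No paired analysis was possible because each condition had a single array. Of the 11 alternatives, 6 left every member value they gave as it was by construction. Under the other 5, 158 of 180 member values were within the technical spread of the reported value, 22 moved by more and 0 called values changed sign. The TNF difference of Icam1 in Rela fl/fl controls ranged from 0.73 to 0.98 and that of Vcam1 from 0.94 to 1.24. The genotype difference with TNF ranged from -1.46 to -1.05 for Icam1, from -1.37 to -0.97 for Vcam1, from 0.96 to 1.03 for Itga11 and from 0.54 to 1.20 for Itga2. Itgb5 on the cKO-labelled arrays (-0.01, quantile), Itga11 in Rela fl/fl controls (0.03, normexp) and Itgb1 in Rela fl/fl controls (-0.02, mean over probes) crossed 0 with TNF.

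In the genotype difference with TNF, members higher past the limit numbered 2, and 1 without scaling, by quantile normalization or with the authors' value table, and 0 with normexp or a 3-fold limit. Itga11 was the gene lost without scaling, by quantile normalization and with the authors' value table, and with normexp Itga2 was lost too. Members lower numbered 1, and 2 without scaling, with the authors' value table, with a 1.5-fold limit or with the mean over probes, where Vcam1 was the gene added, and 0 with a 3-fold limit. Without TNF, members higher numbered 1, and 0 with a 3-fold limit, and members lower 0, and 1 with a 1.5-fold limit. With TNF in Rela fl/fl controls, members higher numbered 0, and 2 with a 1.5-fold limit and 1 with the mean over probes.

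Counts of all genes past the limit are given for TNF in Rela fl/fl controls, TNF on the cKO-labelled arrays, genotype without TNF and genotype with TNF, in that order. They were 1559, 1365, 1920 and 1072 as reported. They were 948, 525, 982 and 486 with normexp, 528, 582, 742 and 469 with both arrays above background, 3707, 3674, 4228 and 3656 with no filter, 2527, 3022, 3285 and 2497 with a 1.5-fold limit, 243, 585, 437 and 467 without patches, and 719, 546, 852 and 567 for genes with a symbol. With a 3-fold limit the counts after the first were 727, 1240 and 597. Quantile normalization gave 396 genes higher and 953 lower in the TNF comparison of the cKO-labelled arrays, beside 255 and 1110, and without scaling the median of all genes there was -0.05 in place of 0.06. The causes were not tested. The single array per condition and, for Itga2 and the dimmer Vcam1 and Itga1 probes, signal near background limit the precision.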
